A study of Mus musculus with 2 samples.

Results

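Cholesterol genes were compared between 1 array of control bone marrow derived macrophages and 1 array of macrophages labelled beta-catenin deficient. The set is a list of 29 genes, read as the mevalonate and sterol enzymes in pathway order, the SREBP control genes, and genes of sterol uptake and transport. Genes entered it by symbol, with no threshold on a measured value, but the list was chosen with earlier results of these data known. A row with a single annotated symbol was found for 28 of the 29, out of 19871 genes with such a row, and Acat2 was not analysed here. Both cultures came from marrow of mice aged 8 weeks and were grown in medium that L929 cells had conditioned, fibroblasts of the mouse that release macrophage growth factor. The sources used here do not give the strain, the allele and Cre driver behind the deficiency, the genotype of the control mice or how many mice were pooled. Each value is an RMA value, a background-corrected, normalized log2 summary of the probes of 1 transcript cluster on an Affymetrix 1.0 ST array. Each column of values is called an array, as the labels give 1 sample for each, although they do not say whether it pools several hybridisations. With 1 array a group there is no replicate error, so no test was possible, and "higher" or "lower" describes these 2 arrays. The number of arrays limits the precision.

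Cholesterol is built from acetyl-CoA through mevalonate, the isoprenoid diphosphates, squalene and lanosterol. The genes of the route are switched on together by SREBP transcription factors, above all SREBP-2. In sterol-rich cells the Insig proteins hold the SREBP escort Scap in the endoplasmic reticulum. When sterols run low, Scap carries SREBP to the Golgi, where proteases release its active part to the nucleus. Macrophages also take in large loads of cholesterol from lipoproteins and dying cells, and pass it from the lysosome through the Npc proteins to the rest of the cell.

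The label of the second array could not be checked on the targeted gene. Ctnnb1, the beta-catenin gene, read 11.3 in control and 11.4 in the array labelled deficient, a difference of 0.15, and the sources used here do not say which exons the deletion removes, so probes outside them check nothing. Axin2, a feedback target of beta-catenin, was lower by 1.64 on the log2 scale (7.61 to 5.97), with the lower value under 7.28, the median of all values of the table, which serves as a floor for dim genes here. Every direction below rests on the label. Macrophage markers were present in both arrays: all 11 measured of 12 lay at or above this floor. Their differences ran from -0.54 (Emilin2) to 0.78 (Fcgr1), with 1 of 11 at least 1.5-fold higher, 0 lower, and a median of -0.00 that turned positive under centring and loess. Over all genes 13.0% were at least 1.5-fold lower and 4.98% at least 1.5-fold higher. Among genes with a mean level at or above the floor these shares were 8.36% and 7.03%. Other cell markers differed more than those of macrophages. Of the fibroblast and stromal markers, 10 of 11 measured were higher by 1.5-fold or more and 0 lower, and their summed level went from 12.1 to 13.4 (log2 of the sum of linear values). Neutrophil and granule markers were at least 1.5-fold higher for 10 of 12 and lower for 0, with a summed level of 12.5 in control and 13.8 in the array labelled deficient. Of 10 dendritic cell markers 3 were higher and 3 lower by that rule, and 7 had a mean level below the floor. Below zero by any amount were 7 of the 10, with a median of -0.29. Their summed level went from 10.9 to 11.7, with Itgax, the brightest of them in both arrays, at 9.61 and 11.1. Among the 19 cell cycle genes with a value, 17 fell below zero and 2 above by any amount, with a median of -0.52. The 1.5-fold rule counted 8 of the 19 as lower and 0 as higher. Their summed level was 14.9 in control against 14.5 in the array labelled deficient. The part of these cell and growth differences in the cholesterol values was not tested, and in such bulk RNA fewer cells of a type and less RNA per cell cannot be told apart.

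The cholesterol genes lay mostly below zero in the difference, deficient minus control. Of 28 genes, 23 were lower and 5 higher by any amount, with a median of -0.35 and a range from -1.19 (Cyp51) to 0.42 (Ebp). Over all 19871 genes 66.2% were below zero and the median was -0.15. Over the 10176 genes whose mean level reached the floor, as it did for 27 of the 28, 58.9% were below zero and the median was -0.08. At least 1.5-fold lower were Cyp51, Tm7sf2, Fdft1, Mvk and Idi1, 5 of 28 (17.9%), against 13.0% of all genes and 8.36% of genes at the floor. At least 1.5-fold higher were 0 of 28, against 4.98% of all genes and 7.03% of genes at the floor. Both 2-fold lower genes, Cyp51 and Tm7sf2, are sterol ring enzymes. That much lower were thus 2 of 28, against 2.34% of all genes and 144 of the 10176 genes at the floor.

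**Figure D1:**
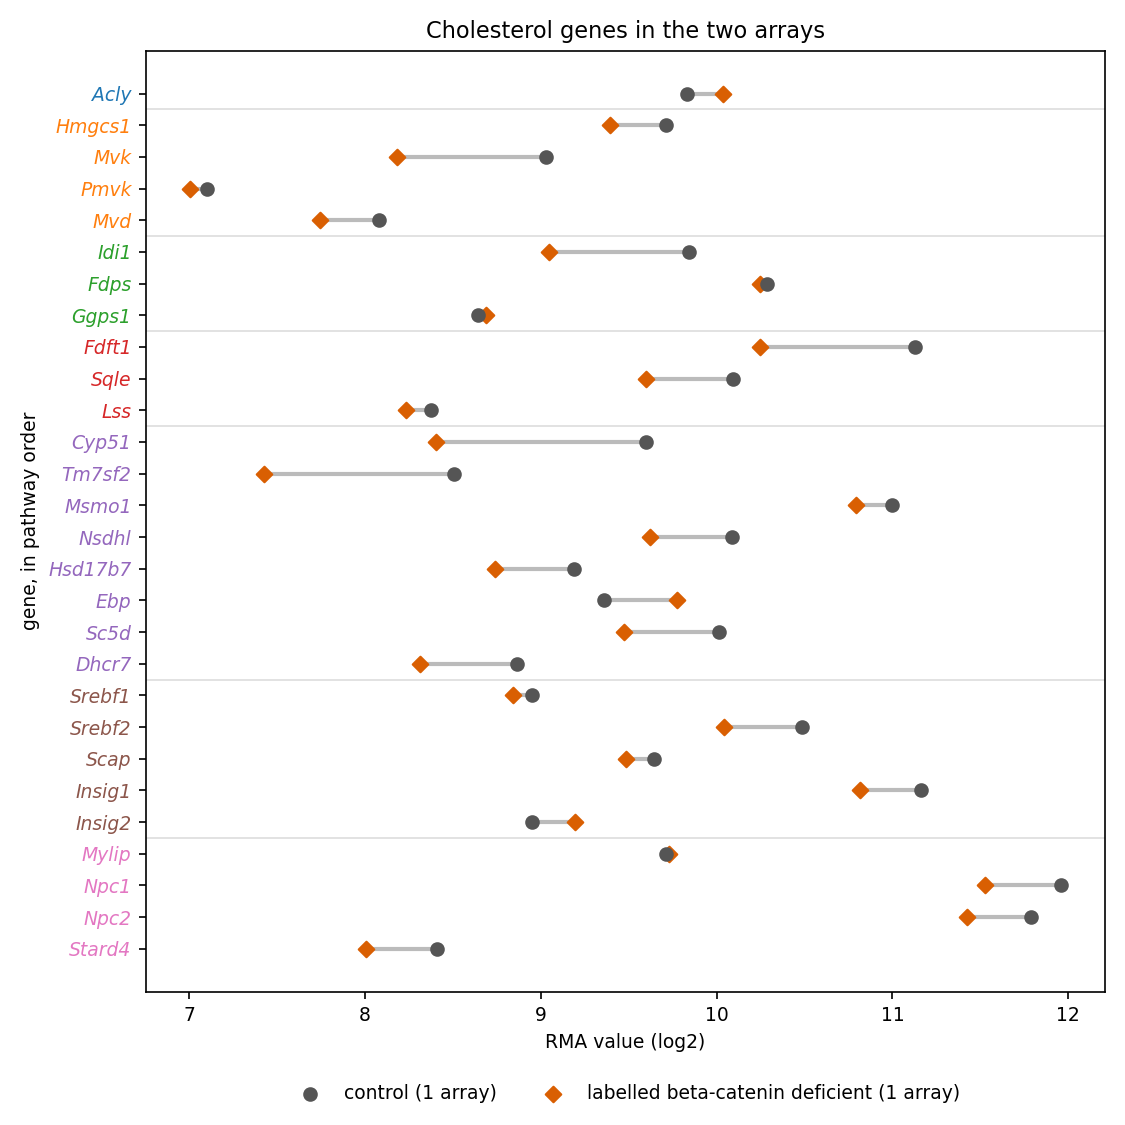
RMA value (log2, horizontal axis) of each of the 28 cholesterol genes in pathway order, with a circle for the control array and a diamond for the array labelled deficient, 1 array each and so no error bars. Horizontal lines part the groups of the pathway; the diamond lies left of the circle for 23 genes, with the widest gap for Cyp51 (9.60 to 8.41).

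Genes of like level were compared next. Differences depended on level across the table, with a median of -0.52 for the 540 genes of mean level 3 to 4 and -0.09 for the 2980 genes from 7 to 8, and the cholesterol genes had mean levels between 7.05 and 11.7. Each gene was therefore set beside all genes within 0.5 of its own mean level (533 to 3398 genes). The 5 genes named above lay below the 5th percentile of their neighbours in level, 0 lay above the 95th, and 21 of 28 lay below their neighbours' median. Once a loess curve of the difference on level was subtracted, 5 of 28 were still at least 1.5-fold lower and 0 higher, where 5.14% of all genes were lower and 8.38% higher.

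**Figure D2:**
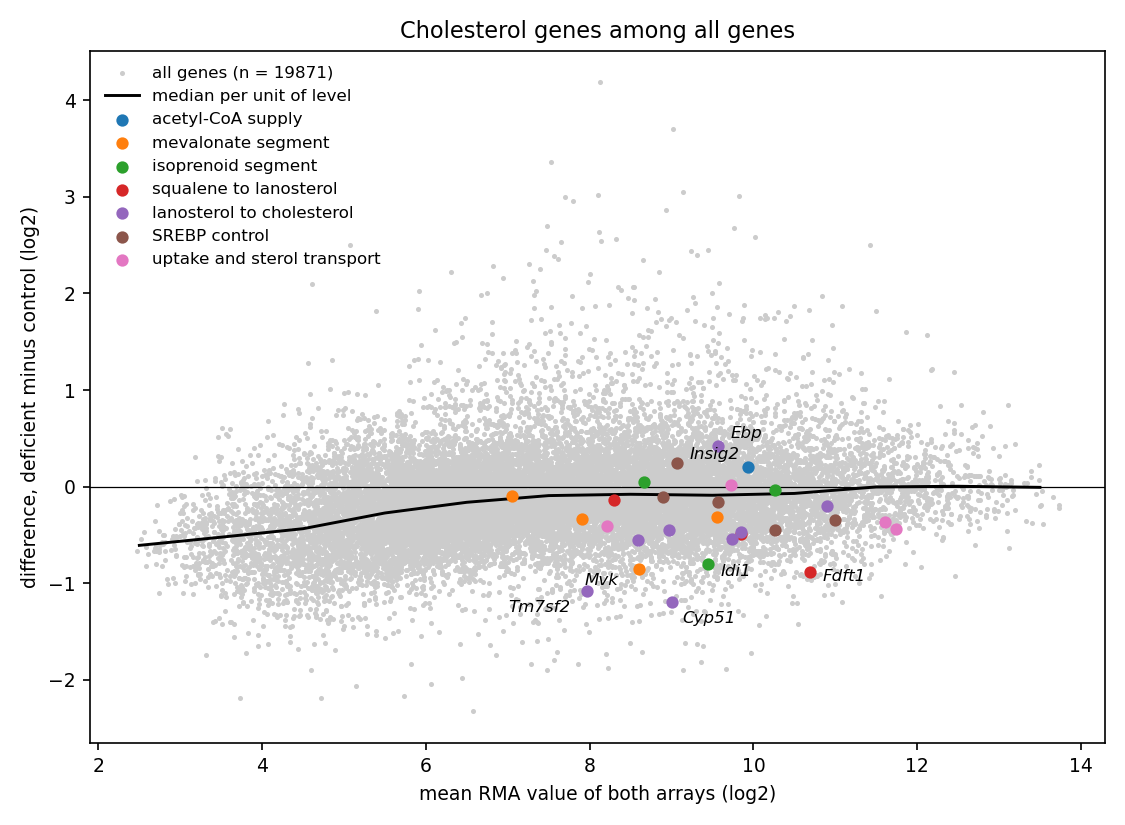
Difference (deficient minus control, log2, vertical axis) against the mean RMA value of both arrays (log2, horizontal axis) for 19871 genes in grey, with the 28 cholesterol genes coloured by pathway group and the black line joining medians per unit of level. The line bends down below a level of about 7, and the cholesterol genes lie to the right of that bend, mostly under the line.

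Promoter sequences show what several of these genes share apart from the pathway. The RefSeq promoter table (GRCm38.p6, 250 bases before to 50 after each transcript start) held windows for 23 of the 28 measured genes, and the promoters of Fdps, Fdft1, Sqle, Npc1 and Stard4 were not analysed here. Printed below, 5′ to 3′, are the 200 bases before the start of the 4 genes with a window that were at least 1.5-fold lower (Mvk, Idi1, Cyp51, Tm7sf2), of Hmgcs1, the gene with the sterol regulatory element letters, of Insig1, a feedback gene, and of Ebp, the highest gene. Capitals mark TCACNCCAC (core of the sterol regulatory element bound by SREBP), CCAAT (the site of NF-Y, a partner of SREBP), GGGCGG (the GC box of Sp1-type factors) and CACGTG (an E-box), each on either strand, so that CCAAT may read ATTGG and GGGCGG may read CCGCCC. No marked motif contains another. The stretches are Hmgcs1 at chr13:119690151-119690350 (plus strand), Mvk at chr5:114444069-114444268 (plus strand), Idi1 at chr13:8885406-8885605 (plus strand), Cyp51 at chr5:4104698-4104897 (minus strand), Tm7sf2 at chr19:6067851-6068050 (minus strand), Insig1 at chr5:28071212-28071411 (plus strand) and Ebp at chrX:8193513-8193712 (minus strand).
Hmgcs1: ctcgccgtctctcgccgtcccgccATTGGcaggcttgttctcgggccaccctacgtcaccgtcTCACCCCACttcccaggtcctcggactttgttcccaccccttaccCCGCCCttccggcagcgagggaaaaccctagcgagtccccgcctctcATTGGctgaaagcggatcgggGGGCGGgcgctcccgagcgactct
Mvk: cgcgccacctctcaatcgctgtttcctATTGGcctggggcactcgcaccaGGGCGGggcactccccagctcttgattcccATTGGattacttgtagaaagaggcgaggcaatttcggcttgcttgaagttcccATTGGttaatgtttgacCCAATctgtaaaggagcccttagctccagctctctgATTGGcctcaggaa
Idi1: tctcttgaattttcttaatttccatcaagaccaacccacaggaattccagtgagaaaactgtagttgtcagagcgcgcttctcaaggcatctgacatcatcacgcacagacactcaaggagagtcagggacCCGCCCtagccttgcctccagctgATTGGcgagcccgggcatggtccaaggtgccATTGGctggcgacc
Cyp51: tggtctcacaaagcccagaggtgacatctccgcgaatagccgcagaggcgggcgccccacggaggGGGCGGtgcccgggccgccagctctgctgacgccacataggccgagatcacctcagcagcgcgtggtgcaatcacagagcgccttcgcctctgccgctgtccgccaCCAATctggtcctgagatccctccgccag
Tm7sf2: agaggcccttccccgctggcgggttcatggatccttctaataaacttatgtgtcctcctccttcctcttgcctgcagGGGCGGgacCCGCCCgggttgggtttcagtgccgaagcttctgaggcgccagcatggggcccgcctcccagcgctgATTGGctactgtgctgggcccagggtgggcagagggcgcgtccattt
Insig1: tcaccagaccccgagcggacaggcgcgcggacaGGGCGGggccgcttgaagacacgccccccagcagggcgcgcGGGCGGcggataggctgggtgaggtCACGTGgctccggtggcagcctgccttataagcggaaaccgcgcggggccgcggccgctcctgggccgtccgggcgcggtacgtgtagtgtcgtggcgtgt
Ebp: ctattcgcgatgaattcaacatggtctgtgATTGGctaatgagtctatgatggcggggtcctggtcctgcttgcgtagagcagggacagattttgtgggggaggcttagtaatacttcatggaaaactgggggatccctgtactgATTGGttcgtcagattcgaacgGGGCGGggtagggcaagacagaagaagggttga

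The Mvk stretch has 5 CCAAT matches, Hmgcs1, Idi1 and Ebp have 2 each, Cyp51 and Tm7sf2 have 1 each, and the Insig1 stretch has 0. Over the full windows CCAAT or its reverse was found for 22 of 23 cholesterol genes (95.7%), all but Scap, against 42.4% of 8233 floor genes with a window and 41.7% of all 15578 genes with one. The GC box was found for 21 of 23 (91.3%), all but Ggps1 and Pmvk, against 70.1% of floor genes. An E-box CACGTG was present for Dhcr7, Hsd17b7, Insig1, Sc5d and Scap, 5 of 23 (21.7%) against 12.1% of floor genes. TCACNCCAC was found in Hmgcs1 alone, 1 of 23 (4.35%) against 1.30% of floor genes. CTTTGAT, the letters of a TCF/LEF site through which beta-catenin reaches DNA, was found in Npc2 alone, against 3.30%. Only these exact letters were searched, so a site that departs from them is missed and a window without a match may still hold one. Genes with more than 1 window have more room for a match, and they made up 21.7% of the cholesterol genes and 20.3% of floor genes. In windows of this length the shares are 37.4% for CCAAT, 35.7% for GGGCGG, 7.15% for CACGTG, 1.24% for TCACNCCAC and 3.73% for CTTTGAT.

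Median differences were also taken over floor genes with and without each motif. Floor genes with CCAAT had a median difference of -0.08 (3487 genes) and those without it -0.07 (4746 genes). Floor genes with TCACNCCAC had a median of -0.03 (107 genes) and those without -0.08 (8126 genes). With CTTTGAT the median was -0.08 in 272 genes, and -0.08 in the 7961 genes without it. The medians were -0.09 and -0.06 with and without GGGCGG, and -0.07 and -0.08 with and without CACGTG. Over all 15578 genes with a window, dim genes included, the medians with and without the letters were -0.16 and -0.15 for CCAAT, -0.11 and -0.21 for GGGCGG, -0.12 and -0.16 for CACGTG, -0.07 and -0.15 for TCACNCCAC, and -0.19 and -0.15 for CTTTGAT. The order of the GGGCGG medians thus turned between floor genes and all genes. These medians describe letters in a window, not binding.

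The supply of acetyl-CoA was read from Acly alone. Acly, which splits citrate into cytosolic acetyl-CoA for both sterols and fatty acids, read 9.83 in control and 10.0 in the array labelled deficient, a difference of 0.21, and 22.0% of genes of its level were higher still.

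All 4 genes of the mevalonate segment were lower, by very different amounts. Hmgcs1, the cytosolic HMG-CoA synthase, went from 9.71 to 9.40 (-0.31). Mvk, the mevalonate kinase, went from 9.03 to 8.18, a difference of -0.85 that left 55.6% of the control value on the linear scale. Its neighbour in the route stood apart from it: Pmvk, the phosphomevalonate kinase, read 7.10 and 7.00 (-0.10), both below the floor, and its difference turned to 0.04 once the loess curve was subtracted. Mvd, the decarboxylase that makes isopentenyl diphosphate, went from 8.08 to 7.74 (-0.34). Of the 4, Mvk was the lowest relative to genes of its level, where 2.86% of 2900 genes were as low or lower.

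In the isoprenoid segment the isomerase differed and the synthases were nearly level. Idi1, which converts isopentenyl to dimethylallyl diphosphate, went from 9.84 to 9.05 (-0.80). A second transcript cluster for Idi1 gave 9.77 and 9.10 (-0.67), past 1.5-fold as well. Fdps, the farnesyl diphosphate synthase, read 10.3 and 10.2 (-0.04), a difference whose sign turned under centring, quantile normalization and loess. Ggps1, which makes the geranylgeranyl chain of prenylated proteins, read 8.64 and 8.69 (0.05).

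Lower values returned at squalene, where the route commits to sterols. Fdft1, squalene synthase, went from 11.1 to 10.2 (-0.89), leaving 54.1% of the control value. Its second transcript cluster gave 10.7 and 10.2 (-0.43), so the 2 clusters had the same sign but lay on opposite sides of 1.5-fold. Sqle, the squalene epoxidase that is a rate-limiting step of the sterol branch, went from 10.1 to 9.60 (-0.49). Lss, which closes the ring to lanosterol, read 8.37 and 8.23 (-0.14), close to the median of -0.08 among genes of its level.

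Of the 8 enzymes between lanosterol and cholesterol 7 were lower, with a median of -0.51. Cyp51, the lanosterol demethylase and the only cytochrome P450 of the route, went from 9.60 to 8.41, a difference of -1.19, or 43.7% of control. Tm7sf2, the sterol reductase of the next step, went from 8.51 to 7.43 (-1.08), or 47.3% of control. Among genes of their levels 0.781% were as low as Cyp51 and 1.39% as low as Tm7sf2. Lbr, the lamin B receptor, which carries the same reductase activity as Tm7sf2, read 9.95 and 10.00 (0.05).

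The demethylation enzymes that follow were lower by less than 1.5-fold. Msmo1, the methylsterol oxidase, read 11.0 and 10.8 (-0.20). Nsdhl, the decarboxylating dehydrogenase, went from 10.1 to 9.62 (-0.47). Hsd17b7, the keto reductase that completes each round, went from 9.19 to 8.74 (-0.45). These 3 enzymes work together in removing the methyl groups of the ring, and their differences ran from -0.20 to -0.47.

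Ebp broke the order. Ebp, the sterol isomerase that moves the ring double bond, went from 9.36 to 9.77, a difference of 0.42 and the highest of the 28, although 11.2% of genes of its level were higher still. The enzymes around it went the other way: Sc5d, the sterol desaturase that acts on the product of Ebp, went from 10.0 to 9.47 (-0.54). Dhcr7, the reductase that ends the Kandutsch-Russell branch of the route, went from 8.86 to 8.32 (-0.55). In these arrays Ebp thus differed in sign from each of the other 7 ring enzymes, and it kept that sign under centring, quantile normalization and loess.

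**Figure D3:**
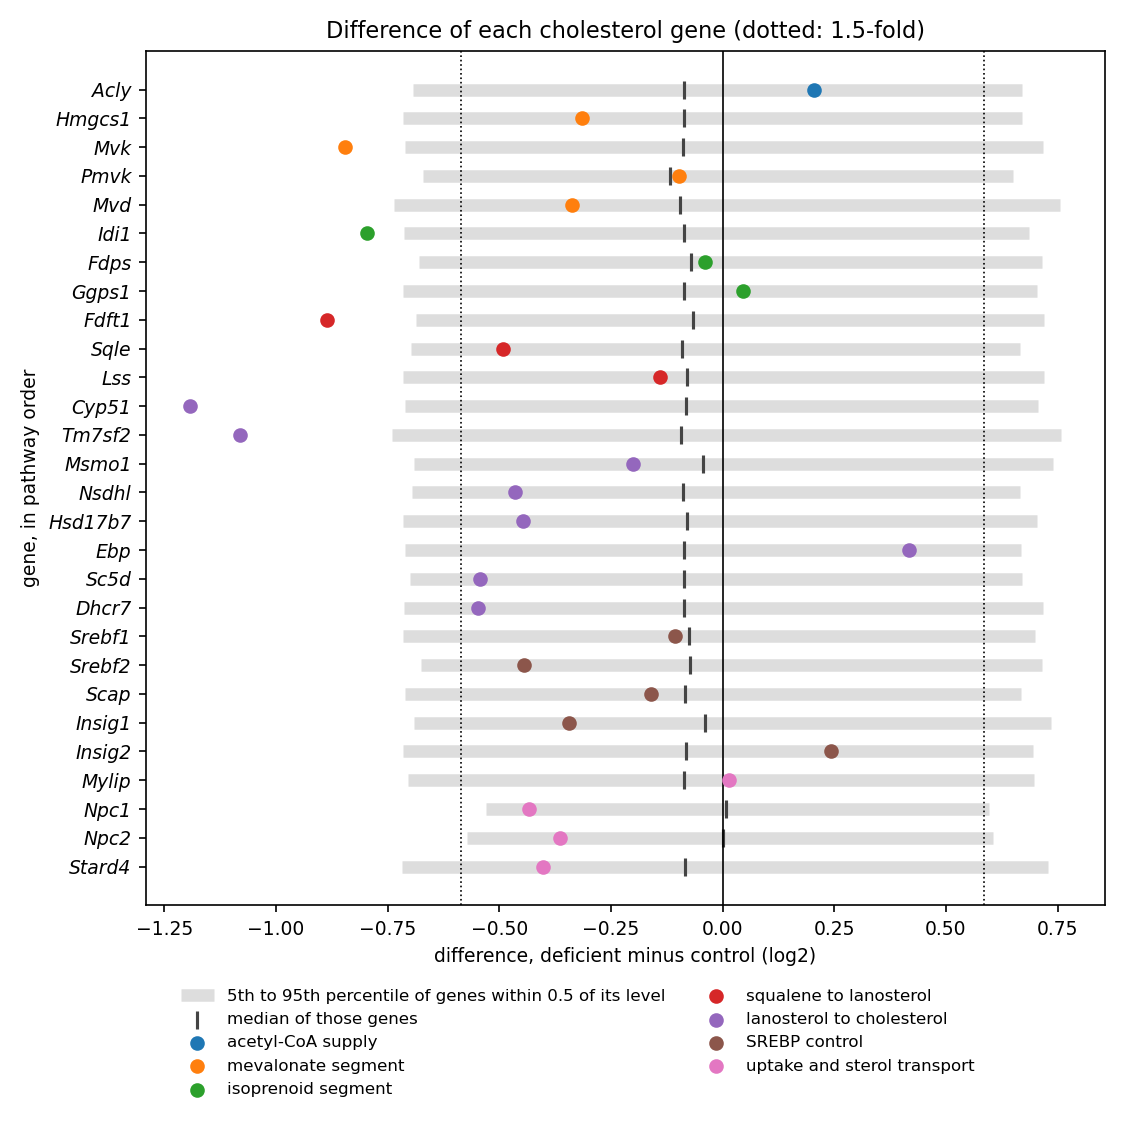
Difference (deficient minus control, log2, horizontal axis) of each cholesterol gene in pathway order, coloured by group, over a grey bar from the 5th to the 95th percentile of all genes within 0.5 of its mean level and a tick at their median. Points of Mvk, Idi1, Fdft1, Cyp51 and Tm7sf2 lie left of their bars, and none lies right of its bar.

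Among the SREBP control genes 0 of 5 reached 1.5-fold in either direction. Of genes at the floor 8.36% were that much lower and 7.03% higher, so 0 among 5 genes is near those shares. Srebf2, the gene of SREBP-2 and itself a target of SREBP, went from 10.5 to 10.0 (-0.44). Srebf1, whose SREBP-1 products favour fatty acid synthesis, read 8.95 and 8.84 (-0.11). Scap, the escort and sterol sensor, read 9.64 and 9.48 (-0.16). The Insig genes went in opposite directions. Insig1, a feedback gene that SREBP switches on, went from 11.2 to 10.8 (-0.34). Insig2, which is expressed without need of SREBP, went from 8.95 to 9.19 (0.24), with 79.7% of genes of its level at or below it.

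Sterol uptake and transport genes were lower for 3 of 4, where 58.9% of genes at the floor were below zero. None of the 4 reached 1.5-fold, which for so few genes is again near the shares of floor genes. Npc1, the membrane protein that exports cholesterol from lysosomes, went from 12.0 to 11.5 (-0.43). Npc2, the soluble carrier that hands cholesterol to Npc1, went from 11.8 to 11.4 (-0.36). The pair stood low for their level, where the spread is narrow: 8.07% of 533 genes were as low as Npc1 and 13.5% of 601 genes as low as Npc2. Stard4, a cytosolic sterol carrier, went from 8.41 to 8.01 (-0.40). Mylip, a ubiquitin ligase that is switched on by LXR and removes lipoprotein receptors, read 9.72 and 9.73 (0.01).

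Other genes of sterol and lipid metabolism went both ways. The following counts use genes with a mean level at or above the floor, of which 8.36% were at least 1.5-fold lower and 7.03% higher. Genes of SREBP cleavage and sterol-regulated degradation had a median of -0.32 over 7 of 10 listed, with 1 at least 1.5-fold lower and 0 higher. Rnf139, a ubiquitin ligase of the endoplasmic reticulum, was lowest (9.55 to 8.95, -0.60), then Syvn1 (-0.43), and Erlin2 (0.47) and the SREBP protease Mbtps1 (0.17) were highest. Fatty acid genes had a median of -0.15 over 13 of 15 listed, with 1 at least 1.5-fold lower and 2 that much higher. By any amount 8 were below zero and 5 above. Fatty acid synthase Fasn (-0.59) and the elongase Elovl1 (-0.52) were lowest. The desaturases Scd1 (8.34 to 10.2, 1.90) and Scd2 (9.95 to 11.1, 1.14) were highest, both more than 2-fold, and both are known targets of SREBP-1 and LXR.

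The efflux and storage lists each held 1 gene at least 1.5-fold higher, a count to be read beside the shares above. LXR and cholesterol efflux genes had a median of -0.13 over 7 of 10 listed, with 1 higher by 1.5-fold and 0 lower. The cholesterol exporter Abcg1 was highest (8.90 to 10.2, 1.28), followed by Abca1 (10.2 to 10.7, 0.42), and the phospholipid transfer protein Pltp (-0.36) and the acyltransferase Lpcat3 (-0.31) were lowest. Genes of cholesterol esters and intracellular sterol transfer had a median of -0.21 over 10 of 12 listed. By 1.5-fold or more 1 was higher and 0 lower, while by any amount 8 were below zero and 2 above. Lipa, the lysosomal acid lipase that frees cholesterol from its esters, was highest (12.4 to 13.0, 0.64), then Stard5 (0.12), while the sterol transfer protein Gramd1b (-0.55) and Osbpl2 (-0.37) were lowest. Lipa and the Npc genes act in sequence in the lysosome and differed in sign.

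Genes of the side branches lay on both sides of zero. Isoprenoid branch genes, which use farnesyl and geranylgeranyl diphosphate for dolichol, ubiquinone and protein prenylation, had a median of 0.08 over 11 of 12 listed, with 5 below zero, 6 above and 0 at least 1.5-fold apart. The farnesyltransferase subunit Fntb (-0.58) and the protease Zmpste24 (-0.38) were lowest, and Coq2 (0.31) and Pdss2 (0.16) of ubiquinone synthesis highest. Other sterol enzymes had a median of -0.14 over 4 of 8 listed, with 1 at least 1.5-fold higher and 0 that much lower. They were Cyp27a1, which makes an oxysterol (0.66), Lbr (0.05), Erg28 (-0.34) and Ch25h (-0.35). Lipoprotein receptors had a median of 0.33 over 6 of 7 listed, with 2 at least 1.5-fold higher and 1 that much lower. By any amount 4 were above zero and 2 below. Vldlr (6.94 to 7.80, 0.86) and Lrp12 (0.77) were highest and Lrp8 (8.95 to 7.97, -0.97) and Lrp10 (-0.42) lowest.

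**Figure D4:**
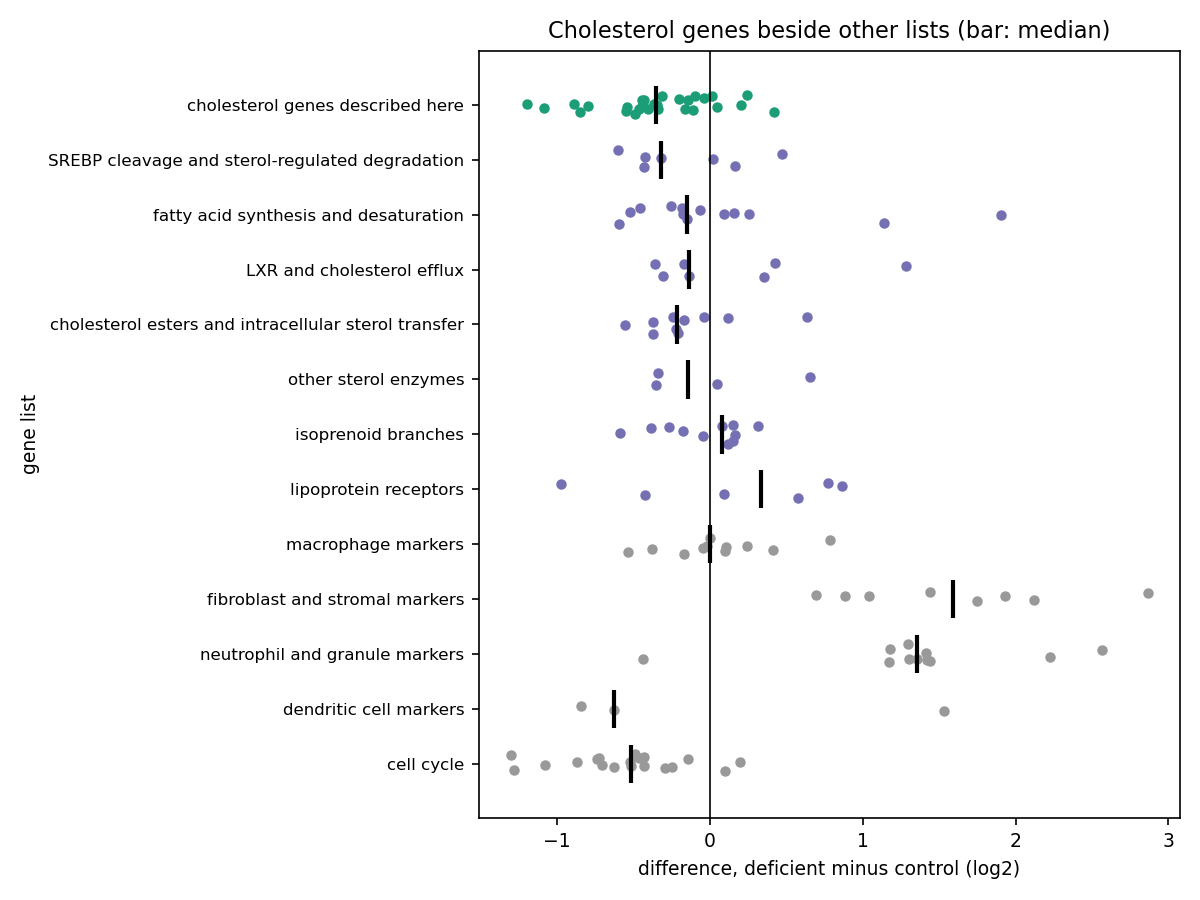
Difference (deficient minus control, log2, horizontal axis) of each gene, 1 point a gene, for the 28 cholesterol genes (green), for other lipid lists (purple) and for cell markers and cell cycle genes (grey), with a black bar at the median; lists other than the first show genes with a mean level at or above the floor. The cholesterol genes have a median of -0.35, the cell cycle genes -0.52, and the stromal and neutrophil markers 1.59 and 1.35.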

How the data were processed

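The authors deposited 1 log2 value per transcript cluster and array, made with RMA per the submitters' processing notes; the sources used here do not give its version, settings or row filters. Log2 scale was read from the range, 2.12 to 14.1. Of 25917 rows, 21632 had 1 gene symbol in GEO's platform annotation, 1560 several and 2725 none. Each gene was read from its row of highest mean, and the deficient array minus the control array was computed (Python 3.11.15, pandas 2.3.3, numpy 2.4.6). Loess curves used statsmodels 0.14.6 (span 0.3), after testing the steps on simulated data. With 1 array a group no p-value, error or interval was computed. Sizes of 1.5-fold and 2-fold were counted. The text names all 28 measured cholesterol genes, Ctnnb1, Axin2, and the 2 highest and 2 lowest floor genes of each other lipid list. Outside that rule, and chosen after their values were seen, are the lowest and highest macrophage marker, Itgax and the genes under the other observations. Members, lists, motifs and alternatives were chosen with earlier results of these data known. Motif letters were matched on both strands of RefSeq windows. Alternatives were centring, quantile normalization, loess, all rows of a symbol averaged, floors, 2-fold and a stricter motif.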

Additional observations from a re-analysis of the deposited data

How the results depend on the processing

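Centring, quantile normalization, loess subtraction and averaging all rows of a symbol left 5 cholesterol genes at least 1.5-fold lower and 0 higher, and no gene crossed 1.5-fold under these 4 settings. The median ranged from -0.28 to -0.36 over all settings. The count of lower genes moved where fewer could pass: with 2-fold in place of 1.5-fold 2 genes were lower, and with a floor on the mean at the 75th percentile 2 of 17 genes were lower, because Cyp51, Tm7sf2 and Mvk fall under that floor. The sign of Fdps turned under each of centring, quantile normalization and loess, and that of Pmvk under loess. The median of all genes was -0.15 as deposited and -0.00 after quantile normalization, and the share of higher genes among all those 1.5-fold apart went from 27.7% to 59.1% (62.0% after loess, 38.4% after centring). The strict motif TCACCCCAC was again found in 1 gene, Hmgcs1. No paired analysis was possible because each group has 1 array. RMA values carry no detection call, so the floor of 7.28 sorts genes by brightness only.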

Other observations

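The genes below were chosen after their values were seen and do not stand for their lists. Nr1h3, the gene of LXR-alpha, read 8.60 in control and 8.96 in the array labelled deficient (0.36). Cyp7b1, which breaks down oxysterols, went from 5.20 to 6.67, a difference of 1.47 with both values below the floor of 7.28. Of the 7 measured LXR and efflux genes 4 were below zero and 3 above, with Abca7 at -0.17 and Scarb1 at -0.13. Of the 6 other sterol enzymes measured, dim genes included, 3 were below zero and 3 above, with Cyp46a1 at -0.26. Among the fatty acid genes, Elovl5 (-0.46) and Acaca (-0.25) were lower while Me1 (0.26) was higher.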
